A study of Drosophila melanogaster with 2 samples.

Results

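The regions described here are binding summits of CG31441 that lay inside introns, at middle distance from any gene start. A summit is the base of a peak that the authors marked as its highest point. It was kept when it fell within a protein-coding transcript, in no coding or untranslated exon of such a transcript, and more than 2000 but no more than 10000 bp from the nearest protein-coding transcription start site (TSS). Of 6501 peaks in the conservative list, 25 were mitochondrial and 6476 nuclear, and 1198 of the nuclear summits (18.5%) met the rule. They occupied 1142 distinct peak intervals in 718 introns of 598 genes.

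The study mapped CG31441, a predicted zinc-finger protein of Drosophila melanogaster, by chromatin immunoprecipitation and sequencing (ChIP-seq). Both libraries, replicate 1 and replicate 2, came from whole embryos 0 to 16 hours old with a transgenic CG31441 fused to enhanced green fluorescent protein (eGFP), and the chromatin was sonicated and pulled down with an antibody against GFP. There was 1 group, every sample carried the transgene, and the promoter that drives it is not given in the sources used here. No group was compared with another and no test was made, because peaks are not replicates. Whole embryos of many ages hold many cell types, so strong binding in few cells and weak binding in many cannot be told apart.

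Introns of fly developmental genes are known to hold many enhancers, short stretches that bind transcription factors and act on a promoter at a distance. Zinc-finger proteins form one of the largest families of DNA-binding factors, and members of the family read out short base patterns or act as architectural and repressor proteins. Summits kilobases away from any start site are therefore a place to look at the sequence under a factor without the base composition of promoters.

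Sequences at or near some of the strong summits are shown here, because the base composition at the summit was the clearest common property of the regions. The first 10 were picked for a word of A and T alone and centred on it, and most do not include the summit base. Their richness in A and T was thus set by the choice. Each run below is 30 bases of the plus strand of dm6, read from the RefSeq genome. Regions on 1 chromosome arm are left out of this display, among them CG12769 and CG46321. The first 10 belong to the strongest regions on the other arms that hold TATTAAAA, the word of 8 bases that led a ranking of all such words, within 50 bp of the summit. Capitals mark the match, which reads TTTTAATA where it lies on the minus strand.
Dif (chr2L:17430218-17430247): gtttagtatttTATTAAAAtattaatttta
comm3 (chr3L:15625863-15625892): ataatgttataTATTAAAAtaagtgtaatt
bowl (chr2L:3776808-3776837): tatactcttttTTTTAATAttaaataattc
Ten-a (chrX:12223044-12223073): aaacacaatttTATTAAAAcgattgagaac
E23 (chr2L:3348289-3348318): gcatttatacgTATTAAAAgcagcaaacca
CG1677 (chrX:7294331-7294360): ttgaattaataTTTTAATAtctaataaact
eIF5B (chr3L:3432788-3432817): atttaattataTATTAAAActaacataaat
dlp (chr3L:14635412-14635441): aataggacaaaTTTTAATAacagatttctt
Ptp61F (chr3L:1368305-1368334): attaggcatatTTTTAATAaattaagtatt
ich (chr3R:8960552-8960581): attatttattgTATTAAAAtaattgttttg
The other 4 are centred on the summits of the strongest regions on the same arms without the word, and the capital marks the summit base.
simj (chr3L:10682917-10682946): tagttaaaaaatagtTtttaaatacatact
CG13894 (chr3L:696929-696958): atatataaaaaatagTtggtctaataaata
CG33158 (chr3L:16480559-16480588): caagattcagtattaTgtttatatatgtct
Tlk (chrX:3742207-3742236): tatacatcttagtttTaatcaagatagatt

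The host genes of the sequences shown cover several functions. Dif encodes an NF-kB family factor of the immune response, bowl a zinc-finger protein of the odd-skipped family, Ten-a a teneurin of synapse matching, dlp a glypican that shapes morphogen gradients, and Ptp61F a tyrosine phosphatase of the JAK/STAT pathway. The signal of these 10 regions ran from 717.7 in Dif to 307.1 in ich. In the 4 regions without the word it was 614.9 in simj, 613.4 in CG13894, 610.2 in CG33158 and 599.2 in Tlk. These 4 were picked by signal among regions without the word, and their summit windows held 14.85% (simj) to 28.71% (CG33158) G and C.

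Middle-distance introns carried fewer summits per megabase (Mb) than introns close to a TSS and more than deep introns. The annotation holds 22.9 Mb of intron sequence that meets the distance rule, which gives 52.4 summits per Mb (95% exact Poisson interval 49.5 to 55.5). Introns between 500 and 2000 bp from a TSS carried 880 summits, or 84.9 per Mb (79.4 to 90.7), and introns over 10000 bp away carried 502, or 24.7 per Mb (22.6 to 26.9). All intervals here cover counting error only, and summits that share an intron are not independent. The same order held in each replicate's own list, with 66.3, 36.4 and 15.2 per Mb in replicate 1 and 69.7, 43.5 and 19.7 in replicate 2.

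Within the range of 2000 to 10000 bp the density changed little with distance. It was 54.9 per Mb between 2000 and 3000 bp (48.5 to 61.9) and 48.6 per Mb between 9000 and 10000 bp, and the 8 bins of 1 kb lay between 43.5 and 57.7. Outside the range it was 162 per Mb within 500 bp of a TSS and 7.44 per Mb beyond 30 kb. At the near limit, the 42 summits 2003 to 2097 bp from a TSS had a median signal of 167.4, and the 43 summits 1901 to 1994 bp away had 204.6. At the far limit, the 34 summits 9504 to 9972 bp away had a median of 191.1, and the 31 summits 10012 to 10484 bp away had 170.6.

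**Figure D1:**
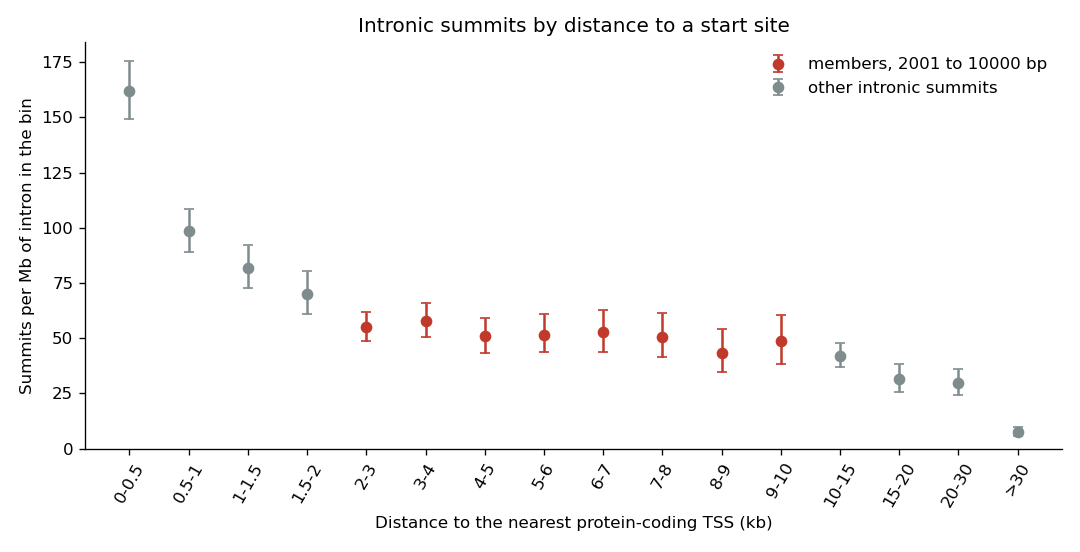
Intronic summits per Mb of intron sequence in each bin of distance to the nearest protein-coding TSS, with exact 95% Poisson intervals as bars. The red bins from 2 to 10 kb lie between 43.5 and 57.7 per Mb, between the 162 per Mb of the first bin and the 7.44 per Mb of the last.

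The regions had about the same signal as nuclear peaks in general. Signal is the authors' value for a peak, on a scale the files do not state. Its median was 175.9 at these regions against 180.4 over all nuclear peaks, a ratio of 0.975, and it ranged from 6.17 to 717.7. Summits within 500 bp of a TSS had a median of 200.8, close introns 196.9 and deep introns 160.4. Only 50 of the 500 strongest nuclear summits were middle-distance intronic ones, against 312 at promoters. Of all nuclear summits, 18.5% were middle-distance intronic ones and 36.5% lay at promoters.

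About as many of these regions as of all summits were found in both replicates. Both thresholded replicate lists had a peak over the summit at 646 of 1198 regions, which is 53.9% (exact binomial interval 51.1 to 56.8), against 54.6% of all nuclear summits. The share was 59.0% in close introns, 58.8% at promoters and 46.8% in deep introns. A further 231 regions (19.3%) were in the list of replicate 2 alone, 109 (9.10%) in that of replicate 1 alone and 212 in neither. At promoters the order was the other way, with 15.1% in replicate 1 alone and 10.8% in replicate 2 alone. The thresholded lists held 4949 nuclear peaks for replicate 1 and 5459 for replicate 2, and the part of list size and library depth in these shares was not tested.

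Most regions missing from a thresholded list were still in the longer ranked lists. The ranked lists of both replicates contained 1129 of the 1198 summits, and 13 were in neither. At the 646 shared regions the signal of replicate 1 was the higher in 555, with a median ratio to replicate 2 of 1.27 and a range from the 10th to the 90th percentile of 0.963 to 1.85. The scales of the lists can differ, so this ratio describes the lists. Spearman's rho between the replicates was 0.713 over these 646 regions, all taken from the same peaks and both libraries, and is given as a description. The nearest replicate summit lay a median of 14 bp away in replicate 1 and 16 bp in replicate 2.

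**Figure D2:**
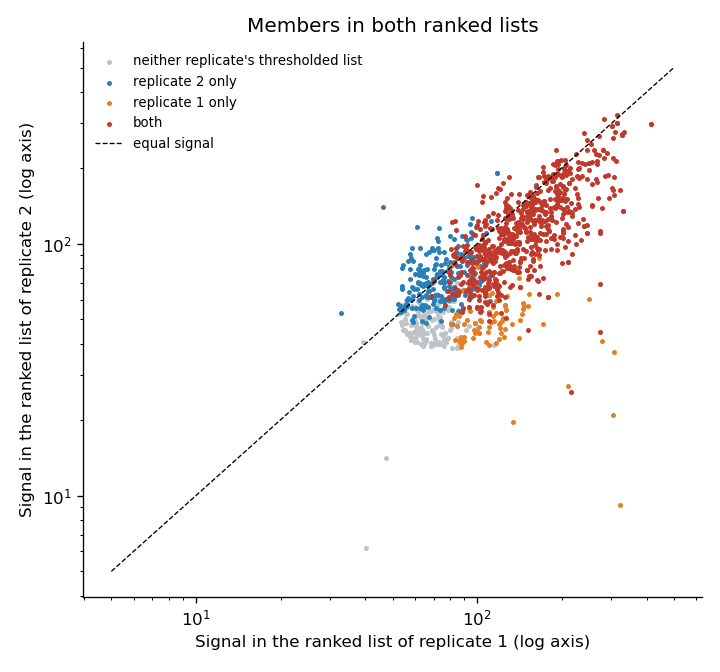
Signal of each middle-distance intronic region in the ranked lists of replicate 1 and replicate 2, on log axes, for the 1129 regions in both lists. Colours give the thresholded lists that contain the summit, and most red points (both lists) lie below the dashed line of equal signal, on the side where replicate 1 was the higher.

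The share of regions in both thresholded lists was higher at higher conservative signal. That signal came from a list made from both replicates, so it was not independent of the replicate lists. Part of the trend is therefore built in, and the size of that part was not tested. Among the 300 strongest regions, with signal from 259.7 to 717.7, 98.7% were in both thresholded lists. The share was 81.3% in the next 299 regions and 26.4% in a further 299. Among the weakest 300 regions, where signal was 130.2 or less, it was 9.33%. The weakest 300 also had the highest G and C content, 35.8% against 28.7% in the 300 strongest.

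The 25 strongest regions lay in 24 genes. All 25 were in both thresholded lists, and in 21 the signal of replicate 1 was the higher. The regions were picked by a signal from a list made from both replicates. Their presence in both thresholded lists is therefore no separate check of that choice. The strongest was in the first intron of Dif (FBgn0011274, chr2L:17429970-17430517), 2022 bp from a start site of that gene. Its signal was 717.7 in the conservative list, 416.1 in replicate 1 and 297.2 in replicate 2. Its summit window held 18.8% G and C and its flanks 41.1%.

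Among the strongest regions were some in genes for chromatin proteins and corepressors. In simj, which encodes the p66 subunit of the NuRD complex, the signal was 614.9 (327.5 in replicate 1 and 270.2 in replicate 2), in the second intron. In Gug, the Atrophin corepressor gene, it was 586.7, with 283.3 in replicate 1 and 313.8 in replicate 2. The replicate 2 value was the higher at Gug and also in intron 4 of JIL-1, a histone H3 kinase gene, with 238.7 and 274.5. In Kdm4B, a histone demethylase gene, the replicates were 301.2 and 166.2 and the conservative value was 486.7. The window at Gug held 19.8% G and C against 55.9% in its flanks.

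Others lay in genes of nuclear receptors and of growth-factor signalling. Hr4, a nuclear receptor gene of the ecdysone response, held 2 of the 25 in its second intron, at 5807 and 9961 bp from its TSS. Their replicate values were 304.7 and 261.6 at the first and 245.0 and 259.0 at the other. A region 7903 bp downstream of a start shared by CG46321 and Hr3, another nuclear receptor gene, had 314.1 and 300.5. The strongest region of Raf, the MAP kinase kinase kinase gene, had 270.0 and 268.1. That of CG33158 also lay in aos, which encodes a secreted inhibitor of the EGF receptor, 3076 bp from the aos start, with 326.9 and 273.2.

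The rest of the 25 strongest regions included transcription factor and kinase genes. The replicate values were 304.2 and 218.1 at crp, a bHLH factor gene, and 265.3 and 227.3 at grh, the Grainyhead gene of epidermal development. They were 321.0 and 163.5 at ken, a BTB zinc-finger repressor gene, where the replicates differed the most among the 25. They were 300.2 and 293.5 at Tlk, the Tousled-like kinase gene, and 270.7 and 224.8 at mnb, a kinase gene of brain growth. The remaining regions lay in CG12769, CG13894, Tis11, ImpL2, Pits, CG9328, kirre, PRAS40, CG10737 and nkd, with conservative signals from 641.1 down to 488.4. Of the 25 regions 12 were in a first intron and 17 lay downstream of the nearest start of their own gene, and all 25 had less G and C at the summit than in the flanks.

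The summits lay in sequence poor in G and C. Windows of 50 bp on each side of the summit held 30.8% G and C on average and like windows centred 400 bp to each side 43.4%. The difference was −12.6 percentage points (SD 11.5 over regions), and the summit was the poorer in 1030 of 1198 regions (86.0%). Close introns (−11.7), deep introns (−12.8) and promoters (−11.9) showed a like drop, so the drop was not limited to these regions. In the lists of single replicates it was −13.7 for replicate 1 and −12.1 for replicate 2.

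The flanks were themselves richer in G and C than intron sequence in general. Tiles of the same length over all intron sequence that meets the distance rule held 40.1%, with 14.9% of the tiles under 30% G and C. Of the summit windows 54.8% were under 30%, and of the flank windows 7.22%. In bins of 20 bp, the content was 30.2% just beside the summit, 44.9% at 210 bp to the right and 39.1% at 990 bp to the left on the plus strand.

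**Figure D3:**
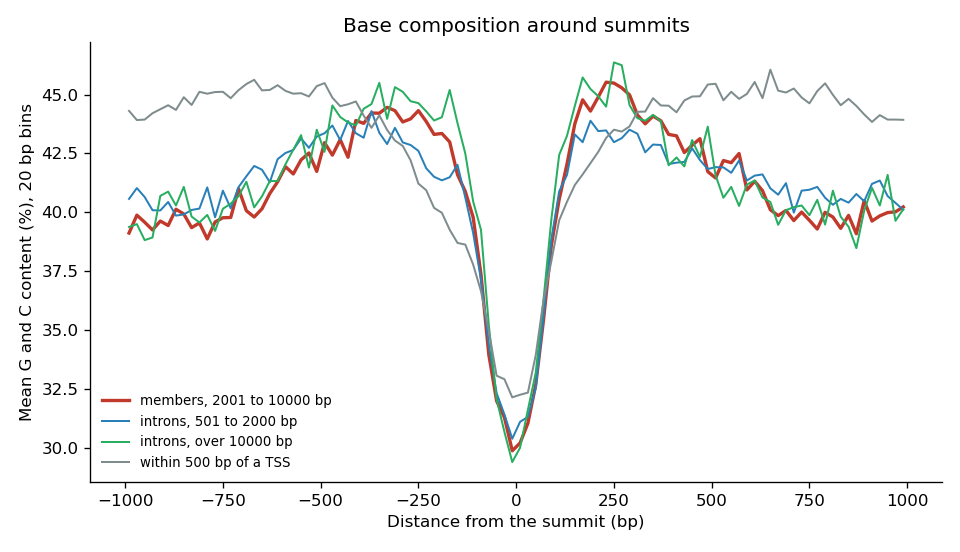
Mean G and C content in 20 bp bins around summits, in percent, against distance from the summit in bp on the plus strand. The red line (1198 middle-distance regions) drops to 30.2% beside the summit, stands at 44.9% at 210 bp and returns to 39.1% at the left edge, and the other intron groups follow a like course.

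Per megabase of window, the density of regions was lower in each bin richer in G and C than the one before. It was 348 per Mb of tiles under 20% G and C (277 to 432) and 282 per Mb at 20 to 25%. At 30 to 35% it was 75.5, and at 50% or more 14.8 per Mb (10.9 to 19.8). The local contrast went with density among windows under 30% G and C. Composition still varied among these windows, with 163 regions per Mb at 25 to 30%, and its part in the contrast was not tested. Where the window held under 30% G and C, tiles at least 20 points below their flanks carried 291 regions per Mb (259 to 327), and tiles 0 to 10 points below carried 82.6 (63.2 to 106).

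A set of 129 regions (10.8%) overlapped a conservative peak of higher signal and did not share these properties. Their summits held 43.5% G and C, a difference from the flanks of 0.422 points, and 47.3% of them were poorer than the flanks. Their median signal was 46.7 against 187.0 in the other 1069 regions, and they included all 34 regions with a signal under 20. Of the 129, 36 lay in a peak of both replicates (27.9%), and such a peak can be the stronger neighbour. Without them the drop was −14.2 points and present in 90.7% of 1069 regions, and the density at 50% G and C or more was 4.83 per Mb (2.71 to 7.97) in place of 14.8. This division was chosen after the values were seen.

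**Figure D4:**
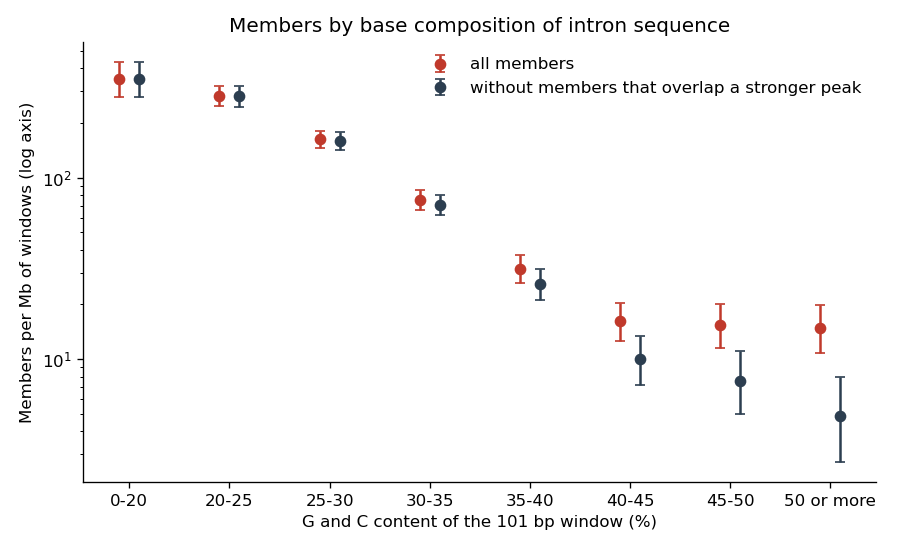
Middle-distance intronic regions per Mb of windows, on a log axis, by G and C content of the window, with exact 95% Poisson intervals. Red points (all regions) run from 348 to 14.8 per Mb, and dark points (without the 129 regions that overlap a stronger peak) run from 348 to 4.83 per Mb.

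No short motif was common to most regions. The leading word, TATTAAAA, which led the ranking on chromosomes 2 and 4, was found on either strand in 70 of 1198 summit windows (5.84%), in 0.584% of flank windows and in 1.87% of tiles. On chromosomes 3 and X, which did not enter the ranking, it was in 42 of 785 regions (5.35%), against 0.764% of flanks and 1.82% of tiles. The words next in rank, AAATATAT, AATATATA, AAAAATAT and AAAATATT, overlap it in part and were also made of A and T alone, in 6.93 to 9.27% of windows. The gap was smaller at like composition. Among windows under 30% G and C, the leading word was in 9.13% of 657 regions and in 5.99% of tiles of the same kind. The part of finer composition in the remaining gap was not tested.

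Of 11 short motifs searched, 7 had a lower share at summits than in intron tiles and 4 a higher one, not all beyond counting error. GAGAG, which the GAGA factor binds, was in 8.77% of summit windows (7.22 to 10.5), 15.0% of flank windows and 11.1% of tiles. Among windows under 30% G and C the shares were 4.26% and 4.76% in regions and tiles, so the values lay close together at like composition. CACACACA was in 1.00% of windows against 2.77% of tiles, CAGCTG, an E-box, in 1.75% against 3.73% (0.761% and 0.778% in windows under 30% G and C), and GCCATTT, a Pleiohomeotic core, in 18 of 1198 against 3.45%. For GCCATTT the shares among windows under 30% G and C were 0.609% and 1.97%. ATCGAT, the core of the DNA replication-related element, was in 2.25% and 2.73%, with 2.13% and 2.67% in windows under 30% G and C. The 4 motifs above their share in tiles were TATATATA (3.42% against 1.74%), AAAAAAAA (9.35% against 7.32%), CAGGTAG, a Zelda word (0.584% against 0.428%), and TGCATAC, from the Su(Hw) site (2.17% against 1.52%). In windows under 30% G and C the shares were 5.48% and 4.97% for TATATATA, 13.1% and 14.4% for AAAAAAAA, 0.152% and 0.189% for CAGGTAG, and 1.674% and 1.501% for TGCATAC. The M1BP and Grainyhead words GGTCACAC and AACCGGTT were in 1 window each, against 0.148% and 0.117% of tiles. Every word was searched by its exact letters on both strands.

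Runs of A and T alone were only a little longer at the regions than in tiles of like composition. The longest such run per window had a median of 11 bases at summits and 8 bases both in flanks and in tiles. Among windows under 30% G and C it was 13 bases at regions and 12 in tiles, and runs of 20 bases or more were in 15.2% and 11.1%.

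The regions were concentrated in the first and second introns of their genes. First introns held 461 regions (38.5%) and 30.9% of the sequence that meets the rule, or 65.2 per Mb (59.4 to 71.5). Second introns held 453, or 66.1 per Mb. Introns in position 3 held 40.6 per Mb and later ones 27.6 (23.5 to 32.1). First introns also led later ones in each replicate, with 47.5 against 16.4 per Mb in replicate 1 and 54.3 against 23.1 in replicate 2. The sequence under 30% G and C showed the same order, with 259 per Mb in first and 117 in introns past position 3.

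Few regions lay near an exon. Within 200 bp of the nearest exon of the host transcript there were 19 regions, or 7.23 per Mb (4.35 to 11.3), and from 2000 to under 5000 bp away there were 438, or 67.6 per Mb. The sequence next to exons was poorer in G and C (36.6%) than that 2000 to under 5000 bp away (40.6%). Within windows under 30% G and C the densities were 32.7 and 295 per Mb. Introns of up to 2 kb likewise held 7.87 regions per Mb, and those of 10 to 20 kb held 65.8. Over regions, with an intron counted again for each region in it, the median intron length was 14018 bp. The median distance to an exon was 3182 bp.

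Most regions lay downstream of the nearest start of their own gene. The nearest TSS belonged to a host gene at 916 regions (76.5%), and 708 of these lay downstream of that start and 208 upstream, which is inside a longer transcript. At 282 regions (23.5%) the nearest start belonged to another gene, as at simj and mnb. Just 43 regions were inside more than 1 protein-coding gene. The like shares of all suitable intron sequence were not computed. These counts are therefore not shown to differ from that sequence.

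Genes with a promoter summit held more middle-distance regions per Mb than genes without one. A promoter summit, a nuclear summit within 500 bp of a TSS of the gene, was present at 267 of 598 host genes (44.7%; 40.6 to 48.7). Among the 3538 genes with suitable intron sequence and no region it was present at 760 (21.5%; 20.1 to 22.9). Host genes had far more suitable sequence, a median of 11823 bp against 939 bp, so density is the better measure. It was 76.6 per Mb (70.4 to 83.1) in genes with a promoter summit and 40.7 (37.6 to 44.0) in those without. The first value was the higher in each of 6 classes of suitable sequence per gene, for instance 99.8 against 38.1 per Mb in genes with 5000 to 10000 bp. In the classes up to 5000 bp the intervals overlapped, and the lowest class held just 3 regions in each kind of gene. In replicate 1 the values were 51.5 and 30.5 per Mb and in replicate 2 they were 62.6 and 35.3. Tile composition was alike in both kinds of gene (39.97 and 40.20% G and C).

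The arms differed in density. The X chromosome had 301 regions, or 65.0 per Mb, arm 3L 58.8, arm 2R 52.2, arm 2L 47.7 and arm 3R 43.5. Chromosome 4 had 0 regions in 0.329 Mb, which allows up to 11.2 per Mb by the exact interval, although 32.4% of its tiles were under 30% G and C.

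A minority of host genes held many regions. Of the 598 genes 322 held 1 region, and 45 held 5 or more and together 293 regions. CG1677 and CG43658, both on the X chromosome, held 11 each, and Raf and mam, the gene of the Notch coactivator Mastermind, held 10 each. The next place was shared by fz, mew, shn, sick and tna, with 9 each. A host is the gene whose intron holds the summit, and the nearest start can be another gene's. That was so at every region of CG1677 (unc-119, brk, Atg5, CBP or CG1999) and of fz (CG13482 or CG13481), and at most regions of mew (CG32639). At Raf (CG14050 or CG2854), mam (CG18371) and sick (CG10481) it was so at some regions. At CG43658, shn and tna every nearest start was the host's own. Counts in replicate lists were lower in most of these genes, with 4 and 9 at CG43658 and 8 and 5 at mam in replicate 1 and replicate 2. Without regions that overlap a stronger peak, CG43658 kept 11, mam 9, CG1677 8 and Raf 8.

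Raf was the densest of these loci. All its regions lay in a single intron, and the gene has 18.99 kb of suitable sequence, which gives 527 per Mb against 52.4 in all genes. The 5 regions nearest its start with a peak of their own had conservative signals of 539.7, 365.2, 408.6, 304.5 and 294.2. Their replicate 1 values were 270.0, 172.6, 207.4, 160.2 and 156.8, and their replicate 2 values 268.1, 185.8, 205.6, 145.7 and 136.9. Signal was thus strong in both replicates along the start of the intron. Of the 10 regions 8 were in both thresholded lists, although Raf had no promoter summit. The 8 include a summit of signal 60.04 in the same peak interval as the one of 304.5. Both carry the same replicate values, 160.2 and 145.7. The count of 10 and the density include 2 regions that overlap a stronger peak. At CG43658, by contrast, signals ran from 111.9 to 225.5 and 3 of 11 regions were in both lists.

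Genes of signalling pathways carried the densest regions among the gene lists. The list held 121 regions in 36 of 78 genes with suitable sequence, or 136 per Mb (113 to 163), against 598 of 4136 genes and 52.4 per Mb over all. In replicate 1 it was 90.2 and in replicate 2 106 per Mb. Raf and mam, of Notch signalling, led the count with 10 each, before fz with 9, Eip75B with 8 and fz2 with 7. The genes fz and fz2 encode Wnt receptors, but at fz every nearest start was another gene's, as at some regions of Raf and mam. The JNK phosphatase gene puc, Pvf3, Eip74EF and ftz-f1 held 5 each. Eip75B, Eip74EF and ftz-f1 are ecdysone-response genes, as is Hr4 with 4. The strongest region of Eip75B had 256.8 in replicate 1 and 141.8 in replicate 2. The share in both thresholded lists was 49.6%, near that of all regions.

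Chromatin genes were next, with few genes behind the value. The list held 27 regions in 10 of 58 genes, or 121 per Mb (79.9 to 176), with 80.8 in replicate 1 and 98.8 in replicate 2. Of the 27, 7 lay in tou and 6 in Smr, a corepressor gene. The strongest, after Kdm4B, were in Psc, a Polycomb-group gene, with 241.0 and 207.2 in the replicates, and in Mi-2, the NuRD remodeller gene, with 212.3 and 173.8. The region in Mi-2 also lay in Su(Tpl), whose start was the nearest. The region at Smr had 239.4 and 117.8. The list's tiles were slightly poorer in G and C (38.7%) than all tiles (40.1%).

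Axon guidance and adhesion genes lay near the background in density. They held 61 regions in 27 of 63 genes, or 62.0 per Mb (47.4 to 79.6). mew, an integrin alpha subunit gene, held 9 and kirre, an immunoglobulin-family gene of myoblast fusion, held 8. The strongest region of dlp had 190.5 and 235.4 in replicate 1 and replicate 2, and that of NetA, a netrin gene, 199.2 and 185.9.

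Developmental transcription factor genes did not stand apart. They held 37 regions in 20 of 60 genes, or 50.2 per Mb (35.3 to 69.1). Mef2, a muscle factor gene, and luna held 5 each. The Hox genes Abd-B and Antp held 1 each, with 295.1 and 151.5 in the replicates at Abd-B and 196.6 and 172.6 at Antp. RNA-binding genes were alike, with 45.1 per Mb (29.7 to 65.6) and 27 regions. The strongest of these lay in Imp (209.3 and 140.1), Rbfox1 (181.2 and 166.5), shep (165.6 and 183.4) and mbl (188.3 and 138.9). Cytoskeleton and muscle genes had 48.1 per Mb in the conservative list, 17.7 in replicate 1 and 35.4 in replicate 2. The strongest there were in mbc (181.5 and 150.5), ena (173.6 and 130.8), rhea (154.6 and 125.8) and Zasp52 (149.1 and 111.0).

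Ion channel and synapse genes held the fewest regions for their sequence. In 0.767 Mb there were 13 regions in 11 of 67 genes, or 17.0 per Mb (9.03 to 29.0), with 2.61 in replicate 1 (2 regions, 0.316 to 9.42) and 9.13 in replicate 2 (7 regions). Just 2 of the 13 were in both thresholded lists (15.4%). One was in dnc, a cAMP phosphodiesterase gene, with a conservative signal of 416.7 and replicate values of 213.3 and 199.9. The other was in Ih, a channel gene, with 142.2, and 78.6 and 65.0 in the replicates. The list's next in signal after dnc, in the sodium channel gene NaCP60E, had 158.6, with 80.5 and 77.1, and was in the thresholded list of replicate 2 alone. The list's tiles held 39.8% G and C, close to all tiles. The cytosolic ribosomal protein genes had just 2 genes with suitable sequence and 0 regions.

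**Figure D5:**
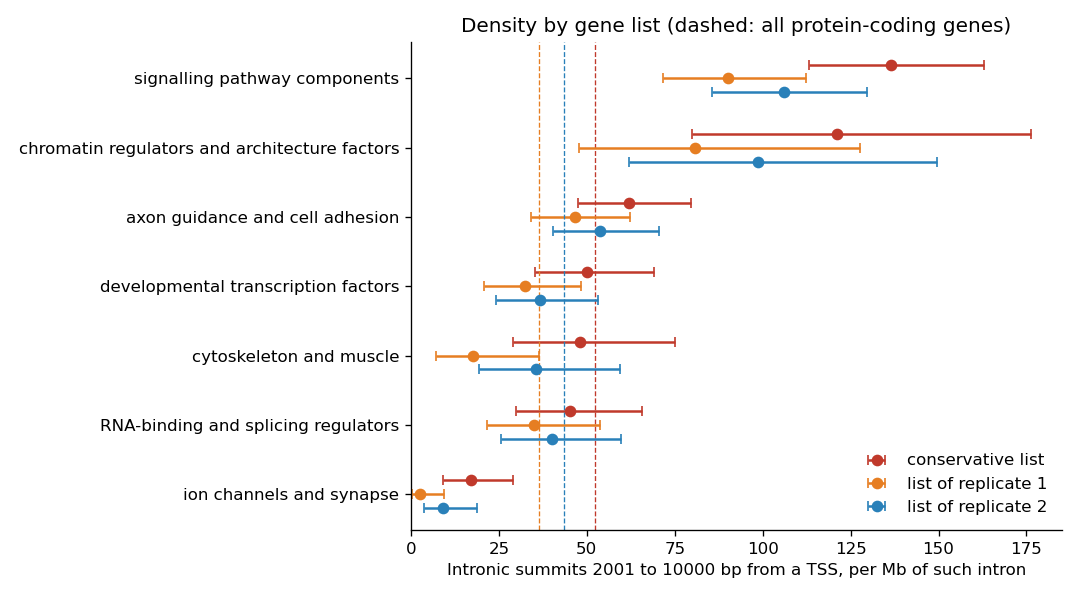
Middle-distance intronic regions per Mb of suitable intron sequence for each gene list, with exact 95% Poisson intervals, in the conservative list and the lists of both replicates. Dashed lines give all protein-coding genes (52.4 per Mb in the conservative list). Signalling genes (136 per Mb) lie above the line and ion channel and synapse genes (17.0 per Mb) below it in all 3 lists.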

How the data were processed

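Deposited peak lists were used, for 2 biological replicates of 1 group, grouped by the labels. The signal is the authors' deposited value per peak, on a scale not stated, which may differ from list to list. The score is the deposited value of the score column of the peak layout, with a maximum of 1000. The conservative list was made by the authors from both replicates, and thresholded and ranked lists from each. The aligner, the peak caller and read depth were not given in the sources used here, control libraries were not analysed here, and 16 columns of single inputs were not used.

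Genes came from Ensembl release 115 and sequence from the RefSeq genome, both of the dm6 assembly, with coordinates counted from 1. Intron number follows the transcript with the most exons at the summit. Densities divide counts by the intron sequence that meets the same rule. Intervals are exact at 95% and cover counting error only. Tiles are windows of the same length as those at summits (50 bp on each side of a centre), without overlap. Replicate values are the highest signal among ranked peaks that contain the summit.

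The members and gene lists were chosen with earlier results of these data known. Named genes are the 25 strongest regions, the 5 hosts with most regions (with ties) and the 4 strongest regions per list; list genes given by count alone were named after their counts were seen. Code was tested on simulated data. Python 3.11.15, pandas 2.3.3, NumPy 2.4.6, SciPy 1.17.1 and matplotlib 3.10.9 were used.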

Additional observations from a re-analysis of the deposited data

How the results depend on the processing

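The 9 main descriptions were recomputed under the alternatives, giving 87 values. Of these, 64 stayed within the interval, 1.5-fold or replicate spread of the value reported, and 23 moved. A change of direction was looked for in the G and C difference alone, which stayed negative in every setting. Density was 36.4 to 43.5 per Mb when either replicate was left out. It was 59.2 with the less strict list, 37.8 with peaks of score 1000, 46.7 with overlapping peaks merged and 48.8 without soft-masked summits. The share in both replicates was 47.4% in the less strict list, 74.2% at score 1000 and 57.1% after merging. It was 43.3% with reciprocal overlap of 50% and 59.6% with an overlap of 1 bp, and leaving out a replicate gives no value. The signal ratio was 0.971 with replicate 2 left out and 1.02 with replicate 1 left out. It thus passed from below to above the median of all summits when replicate 1 was left out. The share with a promoter summit at the host gene, 48.1% in the report's list, was 40.1 to 43.7% with a replicate left out, 52.25% in the less strict list and 32.3% at score 1000. The cause was not tested. The G and C difference was −14.2 points after merging, −10.9 without soft-masked summits and −10.1 in windows of 100 bp on each side. In windows of 25 bp and 100 bp on each side, GAGAG was in 4.09% and 20.8%, and the leading word in 2.17% and 9.94%, as shorter windows hold fewer words. No paired analysis was possible because there is 1 group. Depth is unknown, so a region missing from a replicate's list is not shown to be unbound there.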

Other observations

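Of the 1198 regions 17 had their summit in an exon of a non-coding gene. The strongest lay in lncRNA:CR46102 inside LpR2, with a signal of 470.4, in lncRNA:CR46265 inside ChAT, with 363.9, and in lncRNA:CR44478 inside Socs36E, with 336.9, and all 3 were in both thresholded lists. Such exons took up 1.09% of the suitable sequence and held 68.0 regions per Mb (39.6 to 109). Just 2 regions lay in an annotated transposable element, in 1.46 Mb of such sequence or 1.37 per Mb (0.166 to 4.94), and 315 summits (26.3%) were on a soft-masked base against 20.9% of the suitable sequence.

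Peak width took one value far more often than others. Among the regions 314 (26.2%) were exactly 560 bp wide, and 28.5% of all nuclear peaks were. Of the 314, 15.6% were in both thresholded lists, against 67.5% of the other 884. Their median signal was 123.4 against 213.4, and their G and C difference −10.3 against −13.5 points.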
